A study of Mus musculus with 2 samples.

Results

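The genes described here are those of the MAP kinase cascades and of the dual-specificity phosphatases, the enzymes that pass a phosphate signal from the membrane towards the nucleus and those that take it off again. Members were chosen by symbol, as every gene of the deposited table whose name begins with Mapk, Map2k, Map3k, Map4k, Mapkapk or Dusp followed by a digit, with 1 Dusp symbol set aside by the rule. This gave 57 of 10761 gene symbols, held in 78 of 14189 assembled transcripts. They comprised 34 kinases, 18 phosphatases and 5 genes that are only named after a kinase, and 52 of the 57 had a mean of at least 1 FPKM over both libraries. FPKM is the number of fragments per kilobase of transcript, scaled for the size of the library, so levels of different genes can be set side by side.

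Both groups were male C57BL6/J mice aged 8 to 12 weeks whose brown adipose tissue, the fat depot that oxidises lipid for heat, was sampled after 10 days on a high-fat diet (60% of kcal). The SML group also received SML into the peritoneum at 5 mg per kg body weight, and the HFD control group ate the same diet without SML. The series title names sesaminol, a lignan of sesame, whereas the labels give only the abbreviation SML. Each group was 1 poly(A) RNA library, and the number of animals or depots behind a library was not given in the sources used here. No difference below therefore has a replicate check, none carries a p-value, and each compares 2 libraries rather than 2 conditions.

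In a MAP kinase cascade, a MAP4K or a small GTPase activates a MAP3K, the MAP3K phosphorylates a MAP2K, and the MAP2K phosphorylates the MAP kinase on a threonine and a tyrosine of its activation loop. The ERK cascade is best known for growth factor signalling and the JNK and p38 cascades for responses to stress and cytokines. Dual-specificity phosphatases of the MAP kinase phosphatase type remove both phosphates. In brown fat cells p38 is known to act downstream of beta-adrenergic receptors and of protein kinase A in the induction of Ucp1, the uncoupling protein that makes heat.

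The activation site separates the ERK, p38 and JNK types of MAP kinase, though not ERK1 from ERK5. The coding sequences around it are given so that these types can be told apart by their letters. They were read from the GENCODE M21 annotation of GRCm38, 5′ to 3′ on the coding strand, and the capitals mark the codons of threonine, a middle residue and tyrosine.
Mapk3: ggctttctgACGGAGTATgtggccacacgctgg
Mapk7: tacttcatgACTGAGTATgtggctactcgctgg
Mapk14: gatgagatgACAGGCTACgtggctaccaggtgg
Mapk12: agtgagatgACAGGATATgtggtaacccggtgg
Mapk11: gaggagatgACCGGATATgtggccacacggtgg
Mapk9: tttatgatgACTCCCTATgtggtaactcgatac
Mapk8: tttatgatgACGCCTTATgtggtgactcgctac
The middle codon was GAG in Mapk3 and Mapk7, which encode ERK1 and ERK5. It was GGC in Mapk14 and GGA in Mapk12 and Mapk11, which encode p38 alpha, gamma and beta. It was CCC in Mapk9 and CCT in Mapk8, which encode JNK2 and JNK1. In the genetic code these codons stand for glutamate, glycine and proline, the residues by which the families are told apart. The pattern searched in frame was a threonine codon, any codon, a codon beginning with TA, a valine codon, any codon, a threonine codon, any codon, a codon beginning with T and a codon beginning with TA. It was found in 8 of the 9 MAP kinases and not in Mapk6, an atypical MAP kinase (ERK3). The window of ERK1 lay at chr7:126763449-126763481 on the plus strand in exon 4 of 7 for Mapk3. The p38 windows lay at chr17:28728390-28728422 on the plus strand in exon 7 of 12 for Mapk14, and at chr15:89134661-89134693 on the minus strand in exon 7 of 12 for Mapk12.

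Across the whole group the libraries held 724 FPKM in SML and 728 FPKM in HFD control. By the size rule used here, a difference in log2(FPKM + 1) of at least 1.5-fold, 1 of the 52 members was higher in the SML library (1.92%, against 5.45% of all 9870 genes that passed the same filter). Of the 52, 3 were lower (5.77%, against 5.74% of all genes), and 48 were neither. The share of members past the rule in either direction was 7.69%, against 11.2% of all genes. The member that was higher was Dusp15, and those that were lower were Mapk12, Map2k6 and Map4k1. The median difference of the 52 members was 0.05 on the log2 scale, against 0.00 over all genes. Their interquartile range ran between -0.22 and 0.18, against -0.21 and 0.22 for all genes. As a group the members thus lay where the bulk of the transcriptome lay.

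**Figure D1:**
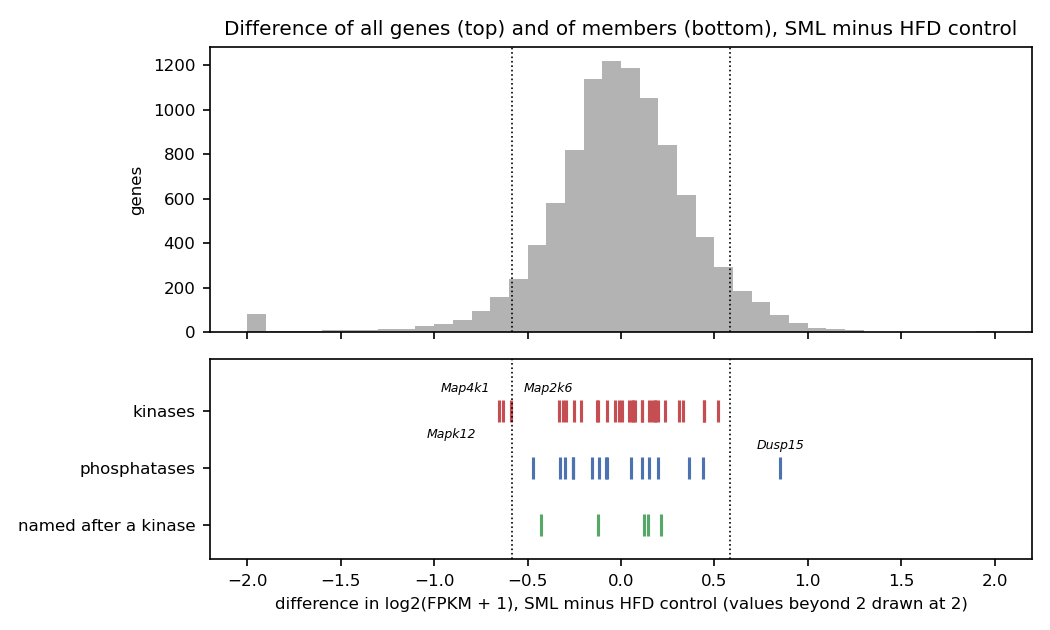
The top panel counts all genes with a mean of at least 1 FPKM by their difference in log2(FPKM + 1), SML minus HFD control, and the bottom panel draws 1 tick for each of the 52 members that passed the same filter; dotted lines mark 1.5-fold. Dusp15 lies beyond the upper line at 0.85, and Map4k1, Mapk12 and Map2k6 lie beyond the lower line at -0.65, -0.63 and -0.59.

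Depth set what could be seen. The deposited count columns could be read as fragments times a fixed step, and they held 8501371 fragments in the SML library and 11994031 in the HFD control library. The members took 18377 fragments in SML and 24439 in HFD control, with a median of 162 and 237 fragments per member. Ratios below are of the scaled counts, SML over HFD control, with a 95% exact interval that covers counting error only. This interval lay above 1 in 11 of the 52 members (21.2%, against 25.1% of all genes) and below 1 in 13 (25%, against 23.5%). Brown adipocyte markers summed to 66522 FPKM in SML and 76939 FPKM in HFD control and all 15 had fragments in both libraries, although Lhx8 was listed at 0 FPKM in SML (14 fragments, against 20 in HFD control). The sums rest on a few very high genes, such as Cox8b with 14824 FPKM in SML and 22044 FPKM in HFD control. Of the 13 that passed the filter, 2 were higher and 0 lower by the size rule, against 5.45% and 5.74% of all genes. The median difference of these 13 was 0.03. Lhx8 and Prdm16 did not pass the filter. Prdm16 had 0.41 FPKM in SML and 1.42 FPKM in HFD control, from 33 and 155 fragments. Its ratio was 0.291 (interval 0.192 to 0.423), in the direction opposite to the 2 that were higher.

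**Figure D2:**
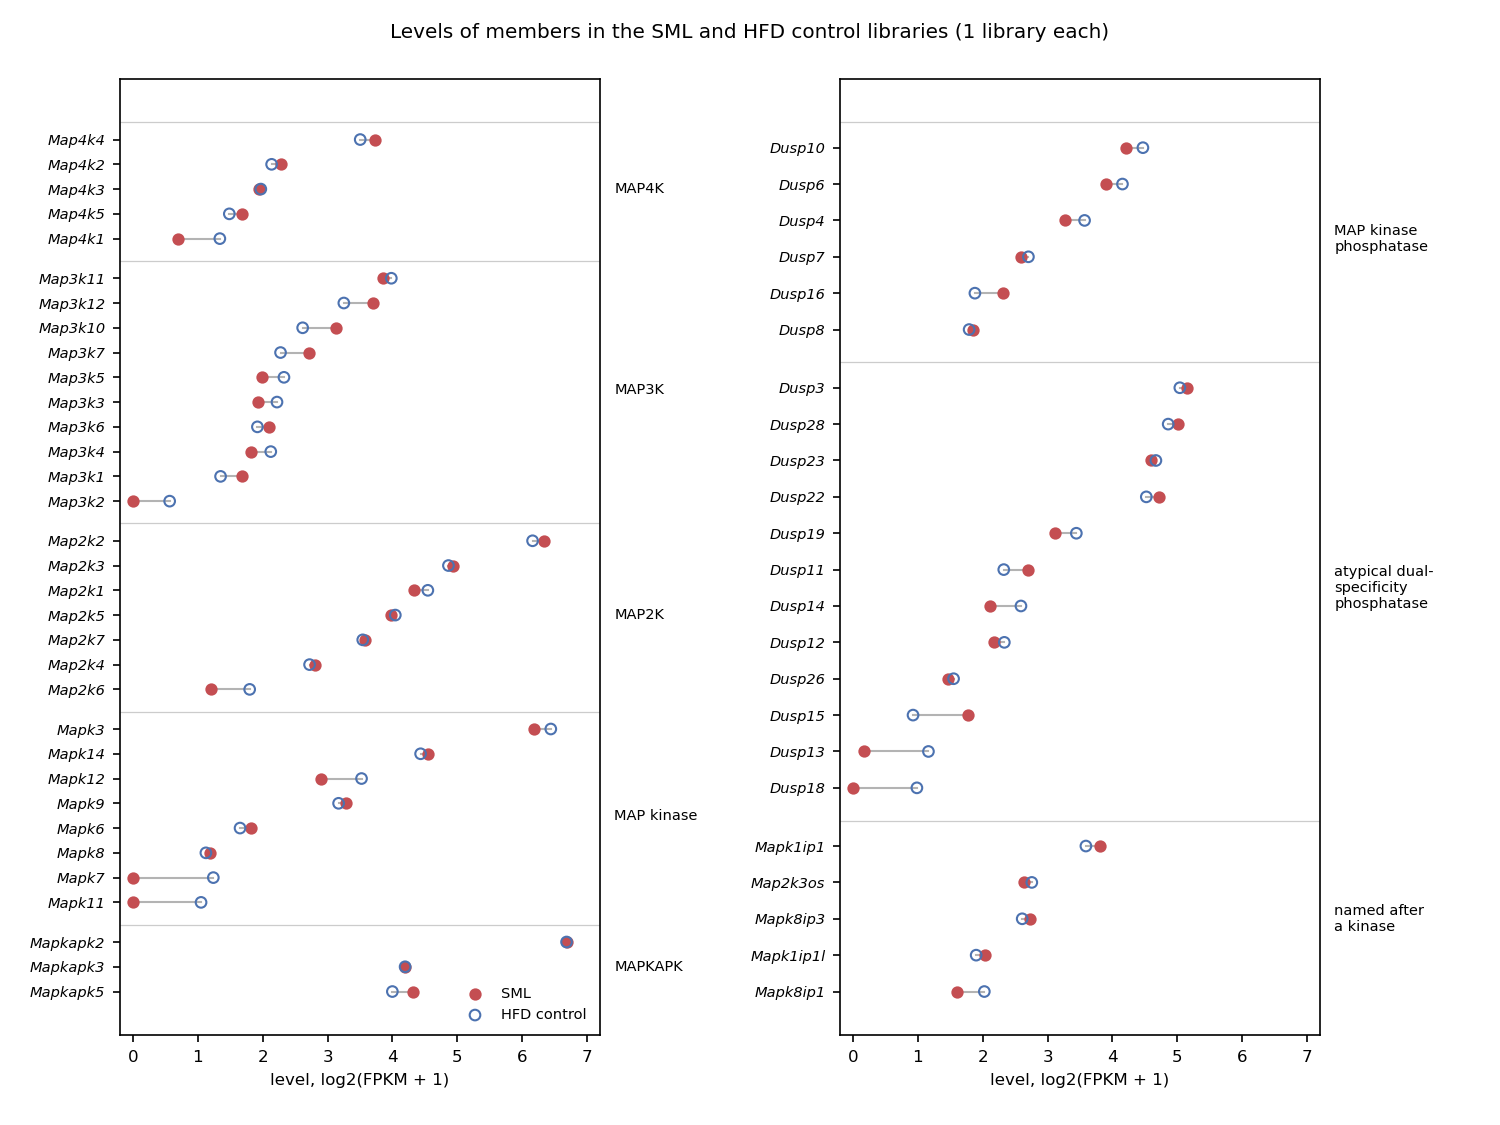
Levels of the members described here on the log2(FPKM + 1) scale in the SML library (filled red) and the HFD control library (open blue), grouped by role and ordered by mean level. Mapkapk2 is the highest of them, at 102 FPKM in both libraries, and the points of Mapk7, Mapk11, Map3k2 and Dusp18 at 0 in SML are genes listed at 0 FPKM although their fragments were counted.

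At the top of the cascade, the MAP4Ks relay signals from receptors and the cytoskeleton to MAP3Ks. Their 5 members summed to 21.9 FPKM in SML and 19.99 FPKM in HFD control. Map4k4, which links cytokine signals to JNK, was the most abundant, with 12.4 FPKM in SML and 10.3 FPKM in HFD control (685 and 738 fragments, ratio 1.26, interval 1.13 to 1.4). Map4k2 had 3.88 FPKM in SML and 3.40 FPKM in HFD control. Map4k3, a kinase tied to amino acid sensing, had 2.84 FPKM in SML and 2.92 FPKM in HFD control. Map4k5 had 2.21 FPKM in SML and 1.8 FPKM in HFD control. The intervals of Map4k2, Map4k3 and Map4k5 all included 1.

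Map4k1 was the MAP4K past the rule. It encodes HPK1, a kinase of blood cells that restrains antigen receptor signalling, and lies at chr7:28982050-29003279 on the plus strand (ENSMUSG00000037337.11). It had 0.61 FPKM in SML and 1.53 FPKM in HFD control, from 15 and 51 fragments. The difference was -0.65 on the log2(FPKM + 1) scale and the ratio 0.40 (interval 0.209 to 0.722). Its mean of 1.07 FPKM passed the filter only through the HFD control library. Macrophage markers were also lower in the SML library, where 9 of 14 were past the size rule downwards and 1 upwards, with a summed level of 318 FPKM in SML and 522 FPKM in HFD control. T and NK cell markers summed to 48.6 FPKM in SML and 52.8 FPKM in HFD control, with 0 of 6 past the rule in either direction. B cell markers summed to 2.44 FPKM in SML and 7.40 FPKM in HFD control, with 1 of 2 lower. No marker of these lists was at 0 in either library, and the part of such cells in the Map4k1 value was not tested. In a piece of tissue, fewer cells of a type and less RNA per cell cannot be told apart.

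The MAP3Ks, where stress and cytokine signals enter, summed to 52.6 FPKM in SML and 48.2 FPKM in HFD control. None of the 9 that passed the filter was past the size rule, and the interquartile range of their differences, between -0.29 and 0.44, was the widest of the 5 kinase tiers. Map3k11 (MLK3), a mixed-lineage kinase upstream of JNK, was the most abundant, with 13.5 FPKM in SML and 14.8 FPKM in HFD control. Map3k10 (MLK2), its close relative, had 7.80 FPKM in SML and 5.13 FPKM in HFD control, from 265 and 237 fragments. Its difference of 0.52 came nearest to the rule upwards, and its ratio was 1.52 (interval 1.27 to 1.82). Map3k12 (DLK), another of the mixed-lineage type, had 11.9 FPKM in SML and 8.52 FPKM in HFD control, with a ratio of 1.4 (1.25 to 1.57). The relatives were thus not ordered alike, with Map3k10 and Map3k12 above the HFD control level beyond counting error and Map3k11 not. Of the exon bases of Map3k10, 14.8% are shared with Ttc9b, and of those of Map3k12, 19.3% are shared with Pcbp2 and Gm10337. Map3k11 shares 11.8% of its exon bases with Pcnx3 and AC134563.1. Reads of such shared bases cannot be told apart in a library that does not mark strand.

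Map3k7 (TAK1), the kinase that carries signals of interleukin-1, tumour necrosis factor and TGF-beta to JNK, p38 and NF-kappa B, had 5.59 FPKM in SML and 3.84 FPKM in HFD control. That is 304 and 281 fragments and a ratio of 1.47 (1.25 to 1.73). Map3k1 (MEKK1), which also acts on JNK, had 2.21 FPKM in SML and 1.55 FPKM in HFD control, with a ratio of 1.43 (1.12 to 1.81). At the other end, Map3k5 (ASK1), which is activated by oxidative stress, had 2.99 FPKM in SML and 4.02 FPKM in HFD control, with a ratio of 0.743 (0.605 to 0.908). Map3k4 (MEKK4), which is activated by GADD45 proteins, had 2.52 FPKM in SML and 3.36 FPKM in HFD control, with a ratio of 0.751 (0.599 to 0.937). Of these 9, 4 thus had intervals above 1 and 2 had intervals below 1, where 25.1% and 23.5% of all genes did. Map3k3 (MEKK3), upstream of ERK5, had 2.80 FPKM in SML and 3.66 FPKM in HFD control, and Map3k6 (ASK2) had 3.29 FPKM in SML and 2.78 FPKM in HFD control, and both intervals included 1. Map3k2 (MEKK2) was listed at 0 FPKM in SML and at 0.48 FPKM in HFD control, yet it held 83 fragments in SML and 68 in HFD control. Its count ratio was 1.66 (1.19 to 2.32), in the direction opposite to its listed FPKM.

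**Figure D3:**
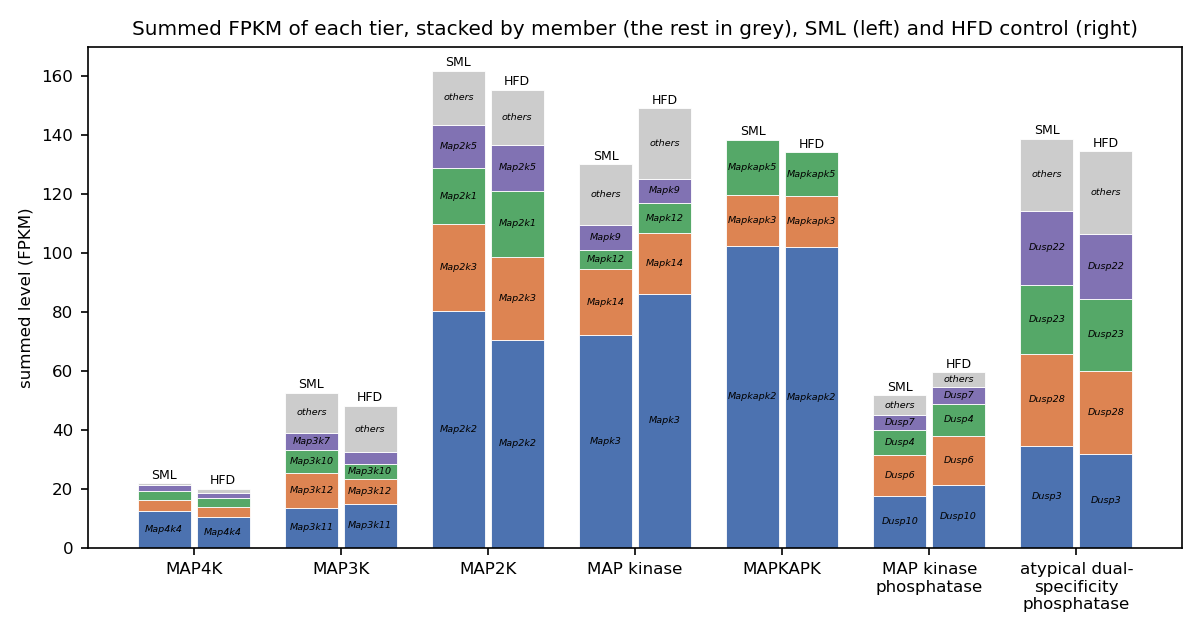
Bars stack the FPKM of the members of each role, SML on the left of each pair and HFD control on the right, with the 4 highest described members in colour and the rest of the tier in grey. The MAP2K bars reach 162 and 155 FPKM, the MAP kinase bars 130 and 149 FPKM, and the MAP kinase phosphatase bars 51.6 and 59.5 FPKM, in SML and HFD control.

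The MAP2Ks, each dedicated to 1 or a few MAP kinases, summed to 162 FPKM in SML and 155 FPKM in HFD control. Map2k2 (MEK2) was the highest, with 80.1 FPKM in SML and 70.5 FPKM in HFD control (1711 and 2049 fragments, ratio 1.13, interval 1.06 to 1.21). Its partner Map2k1 (MEK1), which phosphorylates the same ERKs, had 19.2 FPKM in SML and 22.4 FPKM in HFD control (412 and 654 fragments, ratio 0.856, interval 0.755 to 0.969). The partners therefore lay on opposite sides of 1, and the level of Map2k2 was 4.18 times that of Map2k1 in SML and 3.15 times in HFD control. The p38 activator Map2k3 (MKK3) had 29.5 FPKM in SML and 28.1 FPKM in HFD control. The ERK5 activator Map2k5 had 14.7 FPKM in SML and 15.5 FPKM in HFD control. The JNK activator Map2k7 (MKK7) had 11.0 FPKM in SML and 10.7 FPKM in HFD control, and Map2k4 (MKK4) had 5.96 FPKM in SML and 5.60 FPKM in HFD control. The intervals of these 4 included 1.

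Map2k6 (MKK6), the other dedicated activator of p38, was the MAP2K past the rule. It lies at chr11:110399122-110525522 on the plus strand (ENSMUSG00000020623.11). It had 1.31 FPKM in SML and 2.48 FPKM in HFD control, from 24 and 62 fragments, a difference of -0.59 and a ratio of 0.526 (0.314 to 0.855). Map2k3, which phosphorylates the same kinases, was 22.5 times as abundant in SML and 11.3 times in HFD control. The sum of both p38 activators was 30.8 FPKM in SML and 30.6 FPKM in HFD control (ratio 1.01, 0.903 to 1.12).

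The MAP kinases summed to 130 FPKM in SML and 149 FPKM in HFD control. Mapk3 (ERK1), at chr7:126759601-126765819, was the highest, with 71.97 FPKM in SML and 85.9 FPKM in HFD control. This rested on 1115 and 1812 fragments and gave a ratio of 0.836 (0.775 to 0.901). It was below 1 beyond counting error but short of the size rule. The JNKs had 9.99 FPKM in SML and 9.18 FPKM in HFD control (ratio 1.09, 0.958 to 1.23), of which Mapk9 (JNK2) made up 8.72 FPKM in SML and 8.00 FPKM in HFD control. Mapk8 (JNK1) had 1.27 FPKM in SML and 1.18 FPKM in HFD control, and Mapk6 had 2.52 FPKM in SML and 2.14 FPKM in HFD control.

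Among the p38 kinases the forms did not move alike. Mapk14, the form that is widely expressed, had 22.4 FPKM in SML and 20.6 FPKM in HFD control (655 and 823 fragments, ratio 1.08, interval 0.974 to 1.2). Mapk12, p38 gamma, is known for its high level in skeletal muscle and lies at chr15:89130584-89140703 on the minus strand (ENSMUSG00000022610.10). It had 6.43 FPKM in SML and 10.5 FPKM in HFD control, from 107 and 238 fragments, a difference of -0.63 and a ratio of 0.611 (0.481 to 0.770). The level of Mapk14 was 3.48 times that of Mapk12 in SML and 1.96 times in HFD control. Mapk11, p38 beta, was listed at 0 FPKM in SML and at 1.07 FPKM in HFD control, but held 24 and 32 fragments and had a count ratio of 1.02 (0.574 to 1.78). Mapk7 (ERK5) was likewise listed at 0 in SML and at 1.36 FPKM in HFD control, with 23 and 52 fragments and a ratio of 0.608 (0.351 to 0.999).

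Skeletal muscle markers moved in the same direction as Mapk12, Map2k6 and Dusp13, a phosphatase known from muscle and testis. Of the muscle list 28 of the 28 genes that passed the filter were lower in the SML library, with a median difference of -3.35. With Ryr1, which did not pass the filter, 29 muscle markers had values. These 29 summed to 541 FPKM in SML and 5342 FPKM in HFD control, with none at 0 in either library. The count ratios of these markers ran between 0.0321 and 0.642 with a median of 0.0761, against 0.611 for Mapk12, 0.526 for Map2k6 and 0.105 for Dusp13. The highest ratio was that of Des alone, and the next were 0.442 for Myl1 and 0.185 for Actn2. Mapk12 and Map2k6 thus lay above every marker of the list except Des. The part of muscle in the values of these members was not tested. Dusp13 itself had 0.13 FPKM in SML and 1.24 FPKM in HFD control, from 2 and 26 fragments (interval 0.0120 to 0.417), and did not pass the filter. Hepatocyte markers were lower as well, with 6.27 FPKM in SML, where 5 of 9 were listed at 0, and 40.1 FPKM in HFD control.

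**Figure D4:**
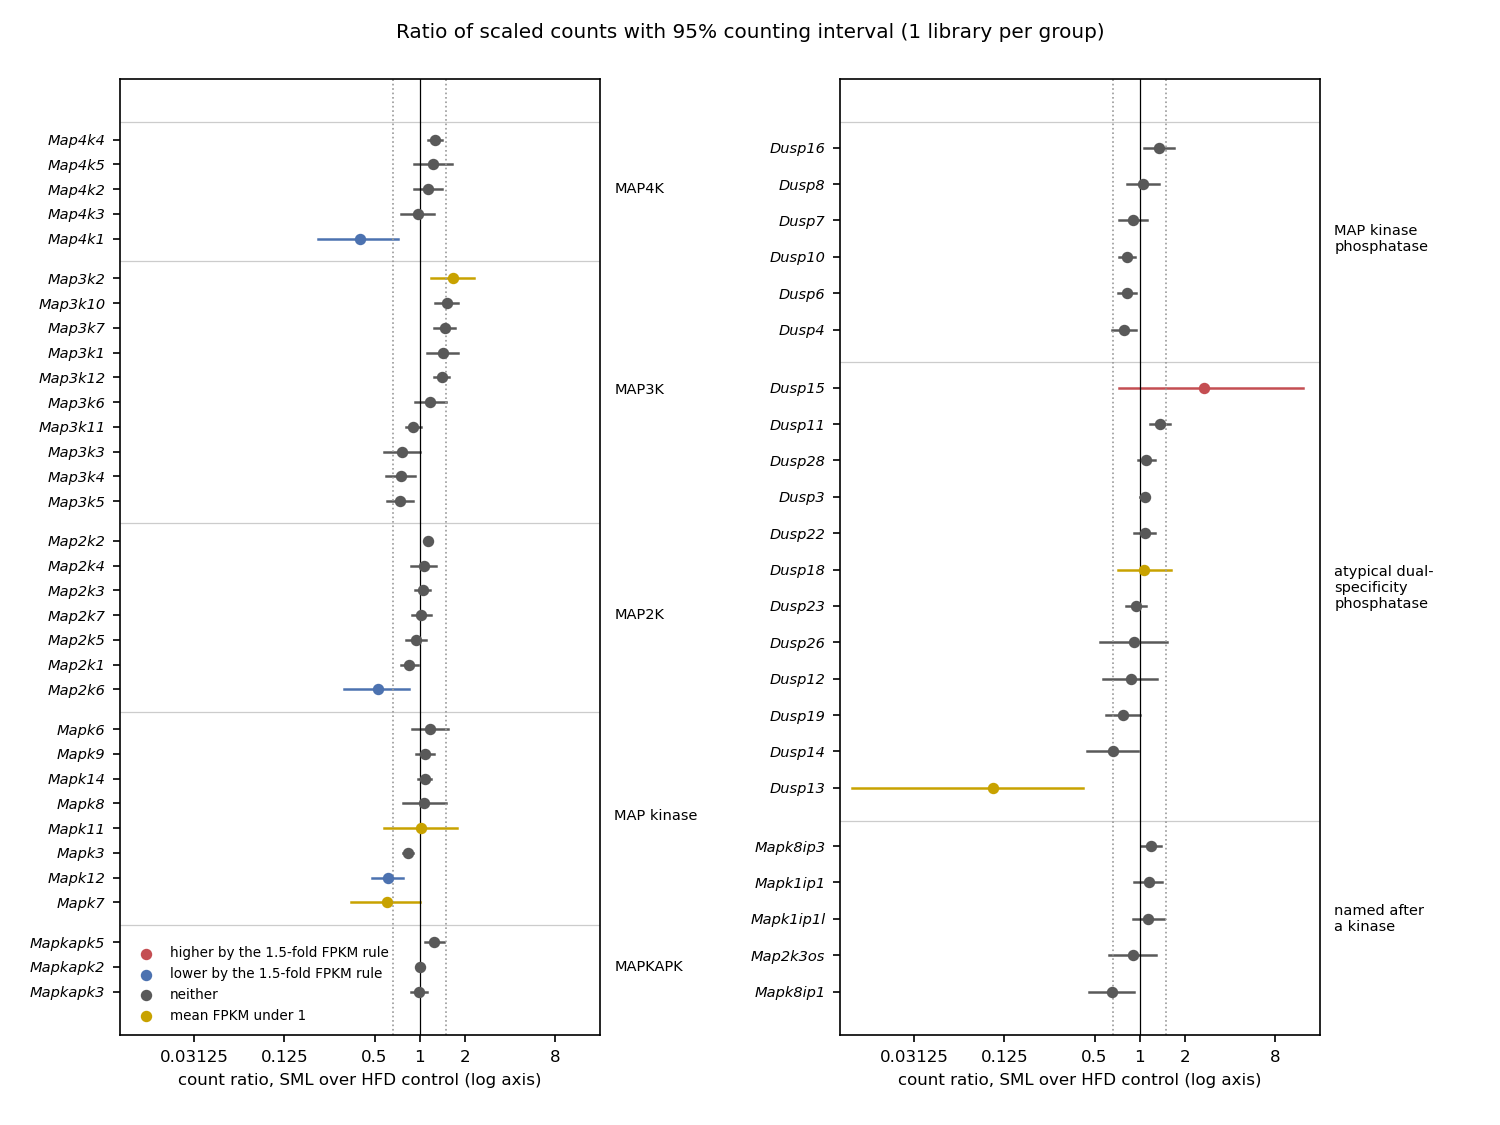
Points are ratios of scaled counts, SML over HFD control, on a log axis with 95% counting intervals, and dotted lines mark 1.5-fold in each direction. Map4k1, Map2k6 and Mapk12 are the members past the FPKM rule downwards, at 0.40, 0.526 and 0.611, and the interval of Dusp15, the one past it upwards, runs between 0.728 and 12.3.

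The promoters of the 3 members that were lower are shown, as the stretch in which shared letters could be looked for. They are the 250 bases before and 50 bases after the start in RefSeq (GRCm38.p6), 5′ to 3′ on the coding strand, with E-boxes (CANNTG, the motif of muscle and other basic helix-loop-helix factors) in capitals. Map2k6 had 3 annotated starts and Map4k1 had 2, and 1 of each is given.
Mapk12: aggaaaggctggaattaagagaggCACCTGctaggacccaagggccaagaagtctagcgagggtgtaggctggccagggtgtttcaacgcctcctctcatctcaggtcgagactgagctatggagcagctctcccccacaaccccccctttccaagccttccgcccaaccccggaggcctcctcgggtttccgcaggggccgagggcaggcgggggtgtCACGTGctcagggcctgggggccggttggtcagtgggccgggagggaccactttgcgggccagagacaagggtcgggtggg
Map2k6: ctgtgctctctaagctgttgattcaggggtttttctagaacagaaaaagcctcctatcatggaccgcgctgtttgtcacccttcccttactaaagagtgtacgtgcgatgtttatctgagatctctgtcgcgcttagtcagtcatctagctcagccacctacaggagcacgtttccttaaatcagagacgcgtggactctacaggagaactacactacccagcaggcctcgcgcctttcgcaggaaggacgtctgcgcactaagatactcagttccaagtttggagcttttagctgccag
Map4k1: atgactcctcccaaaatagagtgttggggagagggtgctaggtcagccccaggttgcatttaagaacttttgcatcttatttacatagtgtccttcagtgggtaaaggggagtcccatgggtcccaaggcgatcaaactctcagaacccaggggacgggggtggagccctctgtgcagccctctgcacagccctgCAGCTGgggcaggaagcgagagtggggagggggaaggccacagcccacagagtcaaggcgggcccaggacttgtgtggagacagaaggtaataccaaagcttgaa
The Mapk12 stretch was chr15:89140654-89140953 on the minus strand, and it held 2 E-boxes. The Map2k6 stretch was chr11:110398852-110399151 on the plus strand, with 0 E-boxes and 1 AP-1 motif (TGANTCA). The Map4k1 stretch was chr7:28982604-28982903 on the plus strand, with 1 E-box. E-boxes stood in 72.3% of 32841 mouse promoters of this length, and in 65.6% of the 61 promoters of 47 member symbols that had an entry. The AP-1 motif stood in 7.81% of all promoters and 6.56% of member promoters. The CRE half-site TGACG on either strand stood in 20.8% of all promoters and 31.1% of member promoters, and the ETS core CCGGAA on either strand in 14.9% of all and 23.0% of member promoters. Motifs were counted separately, overlaps included, and a match is a run of letters and not a site.

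Downstream of p38, the 3 MAPKAP kinases summed to 138 FPKM in SML and 134 FPKM in HFD control. Mapkapk2 (MK2), which controls the stability of cytokine mRNAs, was the most abundant member of all, at 102 FPKM in SML and 102 FPKM in HFD control. With 2378 and 3220 fragments its ratio was 1.00 (0.951 to 1.06). It lies at chr1:131053700-131097826 on the minus strand. Mapkapk3 (MK3), its close relative, had 17.2 FPKM in SML and 17.3 FPKM in HFD control, with a ratio of 0.993 (0.876 to 1.12). Mapkapk5 (MK5), which binds ERK3, had 18.8 FPKM in SML and 14.99 FPKM in HFD control, with a ratio of 1.25 (1.09 to 1.45). Of the exon bases of Mapkapk5, 56.5% are shared with Adam1a and Gm42878, so its counts are uncertain. The same holds for 49.8% of the exon bases of Dusp12, 35.2% of Map2k7 and 20.4% of Mapk8ip3, described in their places.

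Phosphatases of this family share a catalytic loop around a cysteine that takes up the phosphate. The coding windows of this loop in the MAP kinase phosphatases with a match are given, read as above, with the codons of the loop in capitals.
Dusp6: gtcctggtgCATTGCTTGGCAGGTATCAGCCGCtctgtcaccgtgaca
Dusp7: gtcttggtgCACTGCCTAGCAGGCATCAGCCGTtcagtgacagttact
Dusp4: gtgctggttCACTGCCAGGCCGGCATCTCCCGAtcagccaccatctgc
Dusp8: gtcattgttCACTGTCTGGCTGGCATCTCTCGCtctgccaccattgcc
The pattern searched in frame was a valine codon, a codon beginning with CA, a codon beginning with TG, any codon, an alanine codon and a glycine codon. It was found in 9 of 18 phosphatases, and outside this group in Dusp12, Dusp14, Dusp15, Dusp19 and Dusp22. The windows lay at chr10:99266018-99266065 for Dusp6, chr9:106373665-106373712 for Dusp7 and chr8:34818424-34818471 for Dusp4, all on the plus strand, and at chr7:142083318-142083365 on the minus strand for Dusp8.

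The 6 MAP kinase phosphatases had a lower summed level in the SML library, 51.6 FPKM in SML and 59.5 FPKM in HFD control. Their median difference was -0.19, against 0.05 over all members, and none was past the size rule. Endothelial markers were lower too, with 241 FPKM in SML and 354 FPKM in HFD control, a median difference of -0.47, 3 of 13 past the rule and none at 0. Erythroid markers summed to 1013 FPKM in SML and 1975 FPKM in HFD control, with 4 of 5 lower, and the part of such cells in the phosphatase values was not tested. Dusp10 (MKP5), which acts on JNK and p38, had 17.5 FPKM in SML and 21.2 FPKM in HFD control (432 and 710 fragments, ratio 0.827, interval 0.732 to 0.933). Dusp6 (MKP3), the ERK phosphatase of the cytoplasm whose transcription ERK itself induces, had 13.9 FPKM in SML and 16.8 FPKM in HFD control (354 and 583 fragments, ratio 0.825, interval 0.721 to 0.943). Dusp4 (MKP2), a nuclear phosphatase also induced through ERK, had 8.64 FPKM in SML and 10.9 FPKM in HFD control (189 and 324 fragments, ratio 0.793, interval 0.659 to 0.951). These 3, the highest of the group, were all lower in SML beyond counting error, by similar amounts. Of the 6, 3 thus had intervals below 1 and 1 had an interval above 1, where 23.5% and 25.1% of all genes did. The 6 genes are too few to tell these counts from those shares. Dusp7, another cytoplasmic ERK phosphatase, had 5.01 FPKM in SML and 5.52 FPKM in HFD control. Dusp8, which acts on JNK and p38, had 2.59 FPKM in SML and 2.46 FPKM in HFD control, and both intervals included 1. Dusp16 (MKP7), a JNK phosphatase, lay on the other side, with 3.99 FPKM in SML and 2.68 FPKM in HFD control and a ratio of 1.35 (1.08 to 1.69).

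The 12 other dual-specificity phosphatases act on a wider range of substrates, RNA among them, and summed to 139 FPKM in SML and 134 FPKM in HFD control. Dusp3 (VHR), a small phosphatase that can act on ERK and JNK, had 34.5 FPKM in SML and 31.9 FPKM in HFD control (ratio 1.08, 1.01 to 1.16). Dusp28 had 31.2 FPKM in SML and 28.0 FPKM in HFD control, and Dusp22 (JKAP) had 25.4 FPKM in SML and 22.0 FPKM in HFD control. Dusp23 had 23.2 FPKM in SML and 24.5 FPKM in HFD control, and the intervals of these last 3 included 1. Dusp11, an RNA phosphatase of the nucleus, had 5.46 FPKM in SML and 4.01 FPKM in HFD control, with a ratio of 1.36 (1.17 to 1.59). Dusp14 (MKP6) had 3.34 FPKM in SML and 5.02 FPKM in HFD control, with a ratio of 0.663 (0.445 to 0.974). So Dusp11 and Dusp14 lay on opposite sides of 1, and neither was past the size rule. Dusp19 had 7.69 FPKM in SML and 9.88 FPKM in HFD control, Dusp12 had 3.53 FPKM in SML and 4.04 FPKM in HFD control, and Dusp26 had 1.77 FPKM in SML and 1.93 FPKM in HFD control, all with intervals that included 1.

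Dusp15, at chr2:152940997-152951698 on the minus strand (ENSMUSG00000042662.16), was the member past the rule upwards. It had 2.43 FPKM in SML and 0.90 FPKM in HFD control, a difference of 0.85. This rested on 8 and 4 fragments, and the ratio of 2.68 had an interval of 0.728 to 12.3, so the difference was not detectable at this depth. It passed the filter only through the SML library. Dusp18 was listed at 0 FPKM in SML and at 0.98 FPKM in HFD control, but held 46 and 58 fragments and had a ratio of 1.08 (0.715 to 1.61).

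The 5 genes named after a kinase were short of the size rule. Mapk8ip1 (JIP1), a scaffold that holds the JNK cascade together, had 2.03 FPKM in SML and 3.07 FPKM in HFD control (ratio 0.655, 0.462 to 0.916), and Mapk8ip3 (JIP3), a scaffold that also links to kinesin, had 5.65 FPKM in SML and 5.10 FPKM in HFD control (ratio 1.18, 1.01 to 1.38). Both intervals left out 1, on opposite sides. Mapk1ip1 had 13.0 FPKM in SML and 11.1 FPKM in HFD control, Mapk1ip1l had 3.12 FPKM in SML and 2.73 FPKM in HFD control, and the antisense transcript Map2k3os had 5.21 FPKM in SML and 5.76 FPKM in HFD control, with intervals that included 1.

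Beneath the gene totals, the assembled transcripts of some members were divided differently. Of the 12 members with over 1 row and at least 50 scaled counts in each library, 4 had another leading transcript (33.3%, against 19.2% of 1943 such genes). A share shifted by at least 50 percentage points in 2 of them, Map3k7 and Mapk8ip3 (16.7%, against 7.62%). Counts of 4 and 2 among 12 members are too small to be told from those shares. The median of the largest shift was 18.6 points over the members and 9.72 points over all such genes. The first row of Map3k7 held 99.1% of its scaled counts in SML and 31.3% in HFD control, and the second held the rest, so the leading transcript was a different one in each library. In Mapk8ip3 the fourth row held 61.7% in SML and 14.5% in HFD control, while the first held 0% in SML and 67.6% in HFD control. The first row of Dusp16 held 87.1% in SML and 42.3% in HFD control, and the second row of Mapk1ip1 held 56.1% in SML and 29.8% in HFD control. The rows of a gene share exons, and Cufflinks, which the submitters' processing notes name, assigns shared fragments by estimation, so these shares carry an error that the table does not give. The leading row of Mapk14 was the same in both libraries and held 91.0% in SML and 88.1% in HFD control. Its minor rows were not steady. The first held 0 fragments in SML and 98 in HFD control, and the second held 59 in SML and 0 in HFD control. The largest shift of Mapk14 was 11.9 points.

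**Figure D5:**
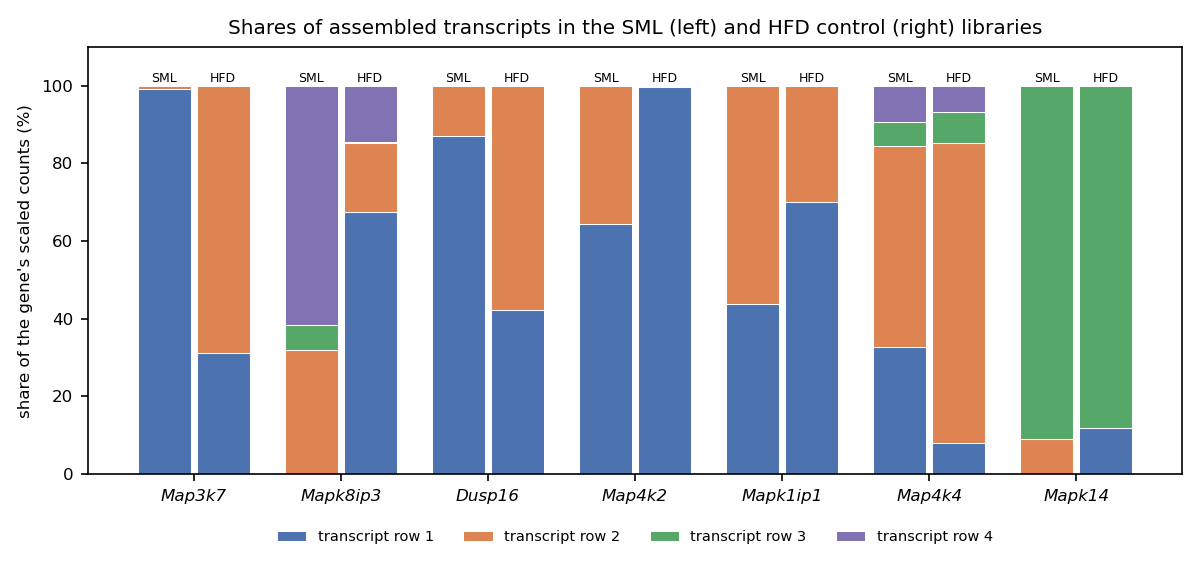
Each bar splits a gene's scaled counts over its assembled transcripts, with SML on the left and HFD control on the right. Map3k7 has 99.1% in its first transcript in SML and 31.3% in HFD control, while the leading transcript of Mapk14 holds 91.0% in SML and 88.1% in HFD control.

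Other genes of the pathway were counted from lists, beside the 5.45% of all genes that were higher and the 5.74% that were lower. Counts of 1 or 2 in lists of 7 to 21 genes are too small to be told from those shares. Of 19 RAF kinases, RAS proteins and receptor adaptors that passed the filter, 1 was lower in the SML library. This was the adaptor Gab2, which had 0.91 FPKM in SML and 2.17 FPKM in HFD control (ratio 0.416, 0.295 to 0.567). Of 12 regulators of RAS-RAF signalling, most but not all of them inhibitors, Spred1 was higher, with 3.94 FPKM in SML and 2.14 FPKM in HFD control. Rasa3, a GTPase-activating protein, was lower, with 2.37 FPKM in SML and 4.85 FPKM in HFD control. This list thus had genes on either side. Of 21 scaffolds and adaptors, the members Mapk8ip1, Mapk8ip3, Mapk1ip1 and Mapk1ip1l counted among them, Gadd45g was higher, with 73.2 FPKM in SML and 38.7 FPKM in HFD control (ratio 1.88, 1.67 to 2.13), and Gadd45a lower, with 1.08 FPKM in SML and 2.53 FPKM in HFD control (ratio 0.427, 0.196 to 0.860). Their relative Gadd45b, named after its values were seen, had 2.27 FPKM in SML and 3.89 FPKM in HFD control (ratio 0.582, 0.345 to 0.955), short of the rule at -0.58. All 3 bind Map3k4, and Gadd45g lay on the other side of 1 from Gadd45a and Gadd45b. Of 7 kinases downstream of MAP kinases none was past the rule, and of 20 transcription factors downstream, Myc was higher, with 1.59 FPKM in SML and 0.69 FPKM in HFD control from 34 and 20 fragments. Of 10 other phosphatases of MAP kinases, 2 were higher and 0 lower. They were Styx, a pseudophosphatase that binds ERK in the nucleus, with 3.57 FPKM in SML and 1.5 FPKM in HFD control (ratio 2.38, 1.8 to 3.17), and the tyrosine phosphatase Ptpn2, with 8.80 FPKM in SML and 5.37 FPKM in HFD control (ratio 1.63, 1.25 to 2.15).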

How the data were processed

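Poly(A) RNA of brown adipose tissue was sequenced in 1 SML and 1 HFD control library. CASAVA 1.8, Cufflinks and build mm10 are named in, and taken per, the submitters' processing notes; aligner, annotation and filters were not given in the sources used here, and the library kit described in the labels' protocols does not mark strand. The authors deposited FPKM and a count column for each library. The deposited count column holds a scaled signal of estimated counts, not raw counts. In symbols with 1 transcript row, its low values (up to 20 steps) move in steps of 0.866 (SML) and 0.638 (HFD control). Of these, 90.5% of 771 and 90.5% of 529 low values were whole within 0.1, and each step was taken as 1 fragment. The steps were fitted to these same values. For symbols with over 1 row the same steps were used without such a check. The counting interval that rests on these steps replaces a count test, which needs replicates. SML FPKM was listed at 0 in 1443 transcripts with a scaled count above 0, against 274 in HFD control, and 8 members had such an SML transcript.

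Transcripts were summed per symbol, and 17 symbols that had become dates were left out. Differences are log2(FPKM + 1) in SML minus HFD control, which understates changes of low genes, for genes with a mean of at least 1 FPKM; the size rule is 1.5-fold. Ratios of scaled counts carry a 95% interval, exact and binomial given the total of both libraries, for counting error only: duplicate molecules from PCR and animals are not covered. Python 3.11.15 with pandas 2.3.3, numpy 2.4.6, scipy 1.17.1 and matplotlib 3.10.9 was used, and the procedure was tested on simulated fragments. Coordinates and coding windows are from GENCODE M21 (GRCm38), which held all 57 members by symbol, and promoters from RefSeq. Alternatives changed the pseudocount, the filter, the scaling, the summing, the unit and the fold.

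The members, lists, rules and alternatives were chosen with earlier results of these data known. Named were members past the rule, the highest and the most different of each role, core kinases with their partners, members listed at 0, and list genes past the rule. The others are named to account for the members. Of 76 symbols of the rule in GENCODE M21, 19 are not analysed here, as the table used here held no row for them. Mapk10, Mapk13, Dusp2, Dusp5 and Dusp9 are among these, so the JNK, p38 and MAP kinase phosphatase groups lack them. No sample column was left unused. The Dusp symbol set aside by the rule, and some members and list genes, are not reported here.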

Additional observations from a re-analysis of the deposited data

How the results depend on the processing

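The median difference of the members lay between -0.02 and 0.09 on the log2 scale over 12 settings and was above 0 in 8 of them. The 40 alternative values of Dusp15, Mapk12, Map2k6 and Map4k1 kept their direction and moved by less than their counting interval. Many of them could not move, so their number is no measure of stability. A filter does not alter a value, the scaling factor by the median ratio was 1, and each of these genes has 1 transcript row and no listed 0. Settings that dropped a gene gave no value for it, and the interval of Dusp15 (0.728 to 12.3) leaves room for large moves. In what follows, each percentage in brackets is the share of all genes past the rule in the same setting. The count of members higher was 1 of 52 (5.45%). It became 2 of 52 with a pseudocount of 0.1 FPKM (8.58%) and 2 of 52 with the deposited count column (8.95%). With the highest transcript per symbol it was 4 of 52 (7.24%). It was 0 of 30 with a mean of at least 5 FPKM (5.19%) and 0 of 55 with at least 30 fragments (5.23%). A 2-fold rule gave 0 of 52 (0.669%). At least 10 fragments in 1 library (added after seeing the data) gave 0 of 51 (5.35%). The pair at 2 added Map3k10, and the 4 added Map3k7, Dusp16 and Mapk8ip3; the settings with a fragment minimum left out Dusp15 by construction. The count of members lower was 3 of 52 (5.74%). It became 7 of 57 without a filter (10.4%) and 6 of 55 with at least 30 fragments (9.1%). In these settings genes listed at 0 FPKM in SML entered (and Dusp13, at 0.13 FPKM, without a filter). The deposited count column gave 4 of 52 (8.29%) and added Mapk8ip1. A mean of at least 5 FPKM gave 1 of 30 (4.96%). Totals made equal outside the 50 highest genes gave 1 of 52 (4.94%), and a 2-fold rule gave 0 of 52 (1.97%). Leaving out Mapk12, Map2k6 and Dusp13 (added after seeing the data) gave 1 of 50. That outcome was fixed by construction, as Mapk12 and Map2k6 were themselves among the 3 lower members and Dusp13 had not passed the filter. The scaling by totals, a factor of 0.05 on the log2 scale that moves low genes by less because of the pseudocount, put Mapk12 at -0.58 and Map2k6 at -0.56, just short of the rule. With the trend on GC content and length removed, 2.94% of all genes were higher and 6.13% lower, against 5.45% and 5.74% in the values reported, and the members' counts stayed at 1 and 3. No paired analysis was possible because each group is 1 library. With 15 to 62 fragments behind Map2k6 and Map4k1 and 4 to 8 behind Dusp15, depth limits these most.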
